A study of Mus musculus with 16 samples.

Results

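The genes described here encode the lysosome's proton pump and its proteases, the LAMP glycoproteins of its membrane, and the ATG proteins that build autophagosomes. They were chosen by symbol as every gene of the deposited expression table named Atp6v or Atp6ap, Cts with a letter, Lamp with a digit or Atg with a digit, and 63 of 25965 genes met this rule. They comprised 13 genes of V1 subunits and 12 of V0 subunits or accessory proteins of the V-ATPase, 18 cathepsins, 3 LAMP genes and 17 ATG genes.

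Oocytes of wild-type C57BL/6 mice (C57BL/6Babr in the methods) were pooled by diameter. RNA was sequenced in duplicate libraries (A and B) from oocytes of 10–30 µm, 40–45 µm, 50–55 µm and 60–65 µm, taken according to the methods on post-natal days 5 to 7, 7 to 12, 9 to 14 and 13 to 16, and GV oocytes, fully grown and in prophase arrest with an intact germinal vesicle, taken on day 20, are given as 1 column of values. Methylation was measured by RRBS, which samples CpG-rich sequence, in duplicate for each class from 40–45 µm upward, and by PBAT, which samples the whole genome, in 1 library of 60–65 µm oocytes. No group carried a treatment or a mutation, and size rose together with age, so that these cannot be told apart.

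As background, the V-ATPase is a rotary pump whose cytosolic V1 sector hydrolyses ATP and whose membrane sector, V0, carries protons into lysosomes, endosomes and Golgi vesicles. Cathepsins are proteases that mature and work in the acid lumen, and the LAMP proteins line it. In autophagy, a membrane grown by ATG proteins encloses cytoplasm and delivers it to the lysosome, and autophagy supplied by the mouse oocyte is known to be required for early embryo development after fertilisation.

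Expression is given in RPKM, reads per kilobase of exon scaled to the reads of the library, which allows levels of different genes to be compared per length but gives a share of the library rather than molecules per oocyte. In these pooled samples, fewer cells of a type and less RNA per cell cannot be told apart. By the spacing of the lowest values in the 9 columns (81.6 to 83.7% of them whole within 0.03 reads), 1 read on 2 kb of exon is 0.00251 to 0.00502 RPKM, and 0.5 RPKM is 99.6 to 199 reads, though what was counted may be aligned segments or mates rather than fragments: which of these, and the gene models used, are not given in the sources used here. The 12 oocyte markers summed to 3404 and 3580 RPKM at 10–30 µm, 2858 and 3008 at 60–65 µm and 2631 to 3955 over all columns. Over growth, 5 of them fell and 2 rose (median log2 change -0.30), where 31.5% of all genes tested fell and 31.9% rose. Of markers of other cells, the granulosa list summed to 12.7 to 21.7 RPKM (7 of 12 genes below 0.5 in all columns), the stroma and theca list to 0.416 to 4.0 (5 of 8), the macrophage and leukocyte list to 1.35 to 4.02 (10 of 11), the endothelial list to 1.06 to 7.15 (2 of 4) and the red cell list to 0.0590 to 0.404 (5 of 5), and no marker was listed at 0 in every column.

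More of the lysosome and autophagy genes lost than gained share in the transcriptome as the oocyte grew. Of the 63 genes, 39 reached 0.5 RPKM in at least 2 of the 8 libraries of growing oocytes and were tested with limma. Between 10–30 and 60–65 µm, 19 of the 39 fell and 4 rose at a Benjamini-Hochberg adjusted p under 0.05, and 16 did not pass. Over all 10518 genes tested, 31.5% fell and 31.9% rose. The median log2 change was -0.28 over the 39 genes and 0.0056 over all genes tested, and the change was negative in 28 of 39 genes (71.8%) against 49.7% of all. The cathepsin H gene Ctsh rose the most (log2 change 2.67 ± 0.13 SE, adjusted p = 6.23e-06), and the cathepsin F gene Ctsf fell the most (-2.78 ± 0.18, adjusted p = 1.11e-05). Ctsf, Atg4d and Atg10, 3 of the 19 that fell, reached 0.5 RPKM only in the smaller classes, where they were high, and so had to differ. Each p measures the spread between duplicate libraries, which may be technical, since nothing in the labels says that they came from separate animals. Without 10–30 µm replicate B, 7 genes rose.

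**Figure D1:**
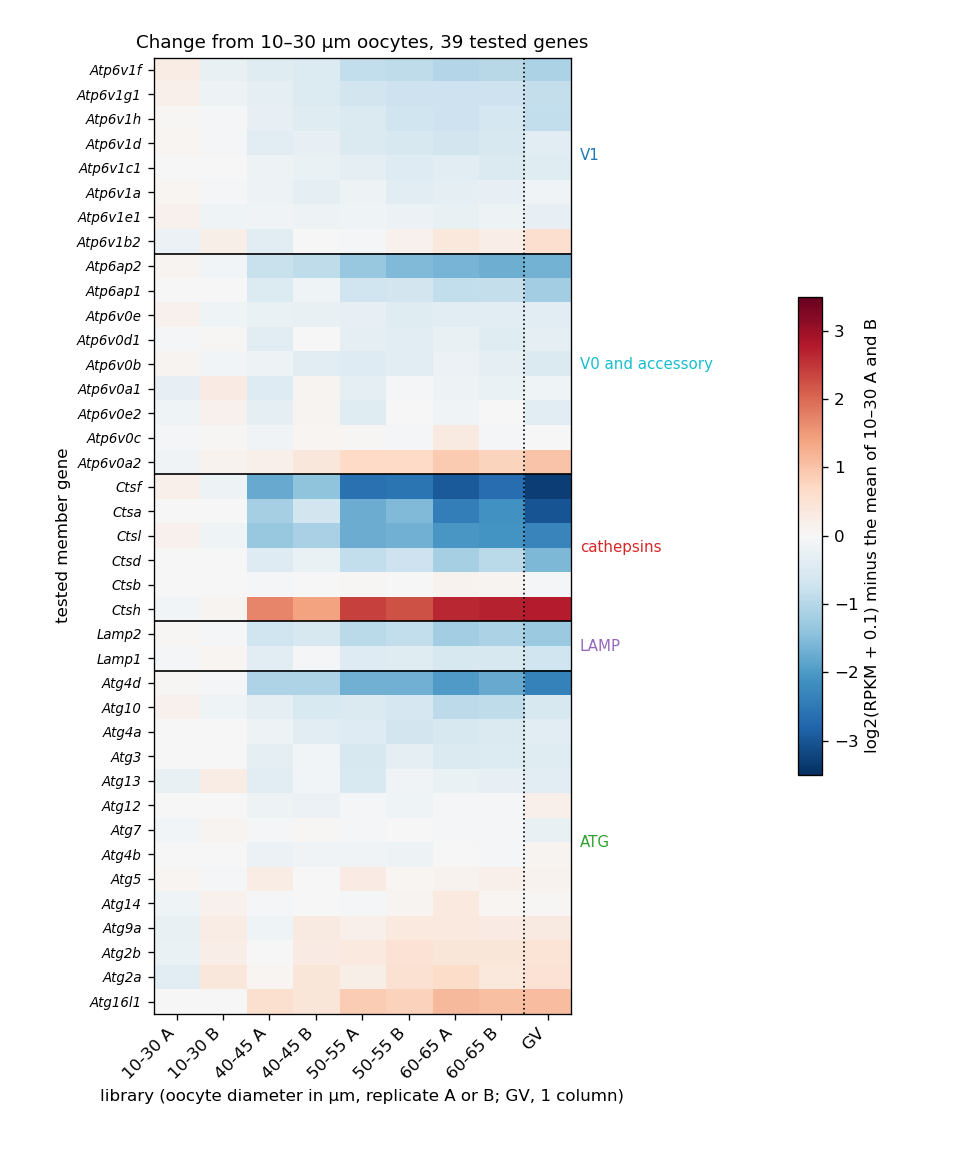
Change of each tested gene from the smallest oocytes, in every library. Rows are the 39 tested genes by group, columns are the 8 libraries of growing oocytes and the GV column, and colour gives log2(RPKM + 0.1) minus the mean of the 10–30 µm libraries, before scaling of the libraries. Blue rows (lower) outnumber red rows (higher), and Ctsh is the darkest red row and Ctsf the darkest blue one.

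The fall lay mostly before the last step of growth. From 10–30 to 40–45 µm, 6 of the 39 genes fell (Ctsf, Ctsl, Atg4d, Ctsa, Atp6ap2 and Lamp2) and 3 rose (Ctsh, Atg16l1 and Atp6v0a2), against 9.57% falling and 13.6% rising of all genes tested. That split of all genes rests on the scaling, since with RPKM as deposited 1521 genes fell and 1088 rose in this step, in place of 1007 and 1426, and of the members 9 fell and 2 rose. The number of members that fell was 3 without 10–30 µm replicate A and 10 without 10–30 µm replicate B, settings in which 315 and 1222 of all genes fell, and the number that rose was 1 without 40–45 µm replicate A. From 40–45 to 50–55 µm, 5 genes fell (Ctsf, Ctsa, Atp6ap2, Atg4d and Ctsd) and 1 rose (Ctsh), against 3.52% and 5.5% of all genes. The calls of this step rest on single libraries, for all genes as for the members. Of the members, 0 fell without 40–45 µm replicate B, 50–55 µm replicate A or 50–55 µm replicate B, 1 without 60–65 µm replicate B, 2 without 60–65 µm replicate A and 3 without 40–45 µm replicate A. The rise of Ctsh in this step was lost without 40–45 µm replicate B or either 50–55 µm library, settings in which 0, 0 and 181 of all genes rose and 0, 0 and 61 fell, whereas 2 genes rose without either 10–30 µm library.

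From 50–55 to 60–65 µm, limma called 0 genes in either direction, of the members as of all genes (0% and 0%). At an unadjusted p under 0.05, 6 members and 1441 of all genes passed in this step. The step changes of the 23 genes called over the whole of growth had 1 sign throughout for 19 of the 19 that fell and for 3 of the 4 that rose, Atg2b being the exception. Choosing genes by a call over the whole of growth favours steps of 1 sign. Among those that fell, the largest step was the first for 8 genes, the second for 10 and the last for Atg10, and a median of 83.5% of the log2 change had occurred by 50–55 µm. These step values were not taken for all called genes, so that they describe the members and do not set them apart.

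The promoters of 5 of the genes are shown because they carry a short element that is frequent at starts of lysosomal genes. The letters CACGTG are the core of the CLEAR element, which is known to be bound by TFEB and its relatives. RefSeq promoters (build GRCm38.p6, 250 bases before to 50 after a start) were found for 50 of the 63 genes. CACGTG, which reads the same on both strands, was present in 12 of the 50 (24%) and in 8.02% of the promoters of all genes of the table, and among tested genes in 12 of 30 (40%) and in 11% of all tested genes. The longer TCACGTG, searched on both strands and by its letters containing the shorter one, was present in 9 of the 50 (18%) and in 4.44% of all. Capitals mark CACGTG below. Lamp1 held 4 copies, more than any other member, Ctsd, Atp6v0b and Atg3 held 2 each, and Ctsf, which fell the most, held 1. Their windows are chr8:13158911-13159210 (+ strand), chr7:142387778-142388077 (− strand), chr4:117887280-117887579 (− strand), chr16:45158579-45158878 (+ strand) and chr19:4854915-4855214 (+ strand), each written 5′ to 3′ on the strand of the gene.
Lamp1: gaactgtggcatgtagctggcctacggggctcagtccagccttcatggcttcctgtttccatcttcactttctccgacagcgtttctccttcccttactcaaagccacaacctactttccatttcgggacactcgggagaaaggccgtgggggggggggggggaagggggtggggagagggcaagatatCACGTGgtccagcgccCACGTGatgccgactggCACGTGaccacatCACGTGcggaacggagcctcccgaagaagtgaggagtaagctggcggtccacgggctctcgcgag
Ctsd: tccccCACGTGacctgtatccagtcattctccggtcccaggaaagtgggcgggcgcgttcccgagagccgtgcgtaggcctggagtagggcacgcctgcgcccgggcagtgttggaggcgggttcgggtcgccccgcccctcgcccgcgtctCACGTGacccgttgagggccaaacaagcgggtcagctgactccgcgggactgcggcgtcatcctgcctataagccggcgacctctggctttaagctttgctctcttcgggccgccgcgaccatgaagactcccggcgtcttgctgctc
Atp6v0b: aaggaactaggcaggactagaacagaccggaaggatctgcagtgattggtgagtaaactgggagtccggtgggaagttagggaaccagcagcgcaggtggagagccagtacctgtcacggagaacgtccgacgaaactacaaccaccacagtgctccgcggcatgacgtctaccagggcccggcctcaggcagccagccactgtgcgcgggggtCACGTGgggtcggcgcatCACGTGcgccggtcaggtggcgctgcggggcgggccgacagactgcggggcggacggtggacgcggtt
Atg3: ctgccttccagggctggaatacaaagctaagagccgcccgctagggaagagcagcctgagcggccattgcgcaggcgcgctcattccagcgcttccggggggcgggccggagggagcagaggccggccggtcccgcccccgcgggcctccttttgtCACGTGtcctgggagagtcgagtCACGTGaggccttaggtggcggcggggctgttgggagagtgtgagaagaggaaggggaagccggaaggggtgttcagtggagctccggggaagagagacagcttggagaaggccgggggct
Ctsf: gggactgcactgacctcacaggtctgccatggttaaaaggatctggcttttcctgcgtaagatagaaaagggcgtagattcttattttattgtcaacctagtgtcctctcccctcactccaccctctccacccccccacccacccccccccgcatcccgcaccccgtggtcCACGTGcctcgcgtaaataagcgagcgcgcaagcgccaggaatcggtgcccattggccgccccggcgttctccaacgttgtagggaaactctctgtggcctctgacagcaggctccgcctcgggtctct

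In the Lamp1 promoter the 4 copies begin between 61 and 15 bases before the start. The other members with a match held 1 copy each, and they were Atp6v0d1, Atp6v0e, Atp6v1a, Ctsl, Atg5, Atg7 and Atg14. Of the members that fell over growth, 7 of 16 with a promoter had the element, and of those not called 5 of 13 had it. The promoter of the 1 rising gene matched, Atg2b, had no match, and these counts are too small to compare. The start of Atg7 that was matched lies 27999 bp from the start in the expression table. A match of letters is a description of the window and was not tested as a binding site.

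**Figure D2:**
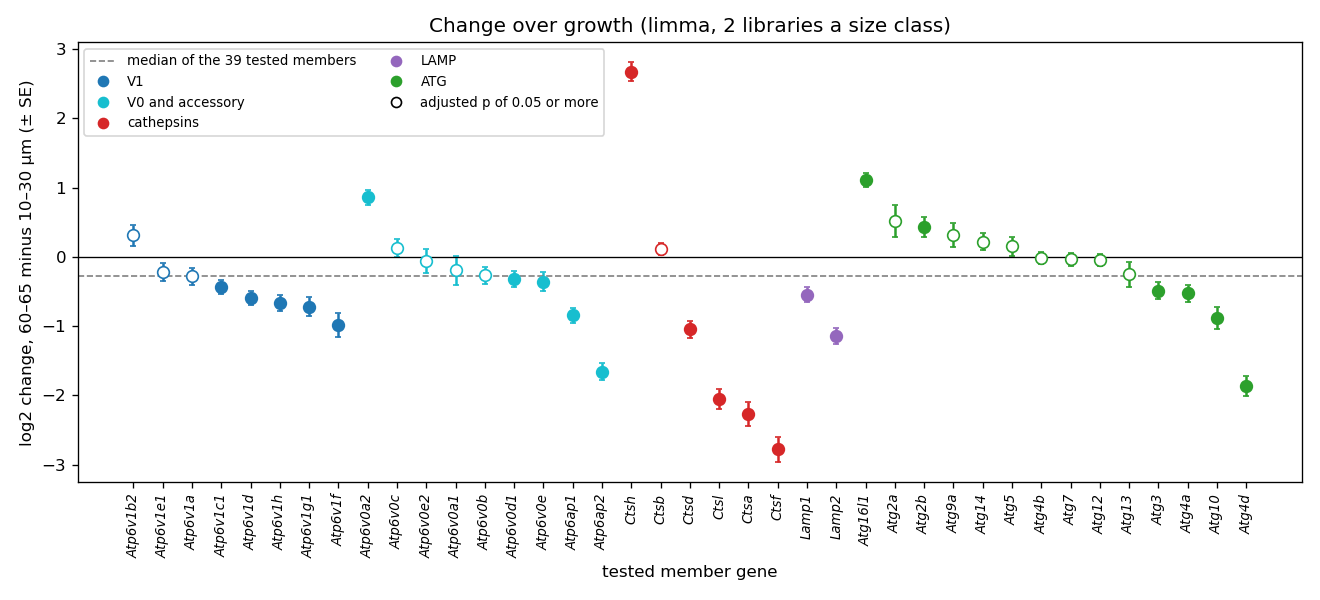
Log2 change from 10–30 to 60–65 µm for the 39 tested genes, with its SE. Points are ordered by group, filled points passed the adjusted p of 0.05, open points did not, and the dashed line is the median of the 39 genes at -0.28. Cathepsins span the widest range, from -2.78 for Ctsf to 2.67 for Ctsh.

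Among the V1 subunits, 8 of 13 genes were tested, 5 fell, 0 rose and 3 did not pass, where 31.5% of all genes fell and 31.9% rose. The summed V1 level was 181 and 156 RPKM at 10–30 µm and 117 and 119 at 60–65 µm. Atp6v1g1, which encodes a subunit of the peripheral stalk, stood at 50.5 and 40.0 RPKM at 10–30 µm, 35.1 and 32.2 at 40–45 µm, 28.5 and 27.0 at 50–55 µm, 26.9 and 27.3 at 60–65 µm and 25.4 in GV oocytes. The 10–30 µm libraries were the highest and lay apart from those of every other class, and the fall over growth passed the test (log2 change -0.72 ± 0.14, adjusted p = 0.00242). Atp6v1f, for a subunit of the central rotor, gave 16.7 and 11.6 RPKM at 10–30 µm, 10.3 and 10.0 at 40–45 µm, 7.54 and 7.42 at 50–55 µm, 6.84 and 7.05 at 60–65 µm and 6.39 in GV. Its decline was the largest of the V1 genes (-0.98 ± 0.17, adjusted p = 0.00136), although the 10–30 µm duplicates differed more than those of any later class.

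Atp6v1h, for the regulatory H subunit, was 22.5 and 21.3 RPKM at 10–30 µm, 17.8 and 16.3 at 40–45 µm, 15.3 and 13.4 at 50–55 µm, 13.1 and 14.2 at 60–65 µm and 12 in GV. It fell (-0.67 ± 0.12, adjusted p = 0.00123), with no overlap between the smallest and the largest class. Atp6v1c1, whose product joins V1 to V0, declined less, from 23.4 and 22.6 RPKM at 10–30 µm through 20.5 and 19.5 and then 18.0 and 16.9 to 17.4 and 16.3 at 60–65 µm, with 17 in GV (-0.44 ± 0.10, adjusted p = 0.0047). Atp6v1d, for the rotor shaft, ranged from 10.7 to 17.4 RPKM over the 9 columns and also fell (-0.60 ± 0.10, adjusted p = 0.00104).

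The 3 V1 genes that did not pass include both subunits of the catalytic head. Atp6v1a, for the ATP-hydrolysing A subunit, ranged from 3.24 to 4.47 RPKM (log2 change -0.28 ± 0.13, adjusted p = 0.0784). Atp6v1b2, for the B subunit of the same head, gave 4.77 and 6.42 RPKM at 10–30 µm, 4.27 and 5.58 at 40–45 µm, 5.26 and 6.14 at 50–55 µm, 7.19 and 6.51 at 60–65 µm and 8.37 in GV, and the 60–65 µm libraries were above both 10–30 µm libraries by less than the gap between duplicates (0.31 ± 0.16, adjusted p = 0.113). Without 10–30 µm replicate B, the fall of Atp6v1a and the rise of Atp6v1b2 both passed, as they did with a replicate block in the fit. Atp6v1e1, for the stalk partner of G, had the highest mean of the V-ATPase genes, at 41.5 and 34.2 RPKM at 10–30 µm, 34.9 and 33.4 at 40–45 µm, 33.7 and 32.4 at 50–55 µm, 31.2 and 33.3 at 60–65 µm and 30.6 in GV, and did not pass (-0.22 ± 0.13, adjusted p = 0.171), except without 10–30 µm replicate B.

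Several V-ATPase subunits have paralogues of which some are known from kidney, bone, testis or brain, and in oocytes 1 paralogue made up nearly all of the RNA of most subunits. By RPKM, Atp6v1b2 accounted for 98.9 to 100% of the B genes, Atp6v1c1 for 99.7 to 99.9% of the C genes, Atp6v1e1 for 99.9 to 100% of the E genes and Atp6v1g1 for 99.8 to 99.9% of the G genes in the 9 columns. The minor genes stayed below 0.1 RPKM in every column. Atp6v1b1, the B gene of acid-secreting kidney cells, was listed at 0.00523 RPKM in 10–30 µm replicate A, at 0 in 10–30 µm replicate B and in both 40–45 µm libraries, at 0.0309 and 0.0235 at 50–55 µm, at 0.0494 and 0.0574 at 60–65 µm and at 0.0916 in GV. The higher values thus lay in the larger oocytes. Atp6v1c2 lay between 0.0182 and 0.0560 RPKM, the testis gene Atp6v1e2 between 0 and 0.0250, Atp6v1g2 between 0.0189 and 0.0727, and Atp6v1g3 at 0 in all 9 columns. Part of Atp6v1g2, 2133 bp or 41.8% of the gene, lies opposite Nfkbil1 (0.393 to 1.19 RPKM), and whether the table was counted by strand is not stated.

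**Figure D3:**
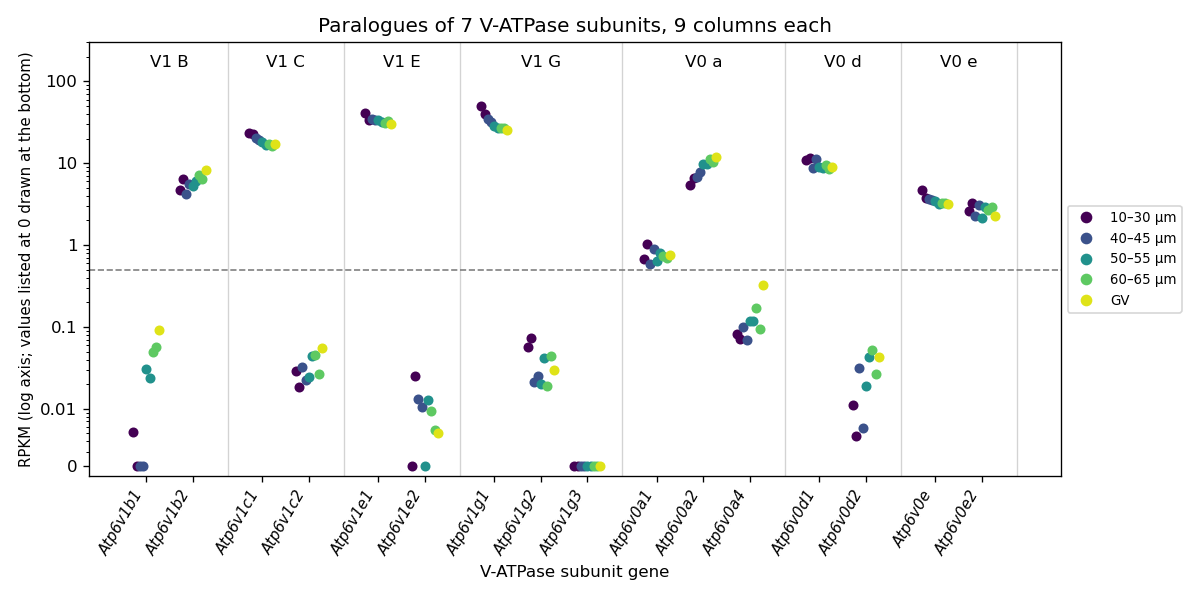
Levels of the paralogues of 7 V-ATPase subunits in the 9 columns, on a log axis with values of 0 drawn at the bottom. Colour gives the size class and the dashed line the 0.5 RPKM used as filter. For the B, C, E, G and d subunits 1 gene lies above 4 RPKM and the others below 0.1, whereas the a and e subunits have 2 genes above 0.5.

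Of the V0 and accessory genes, 9 of 12 were tested, 4 fell, 1 rose and 4 did not pass (31.5% of all genes fell and 31.9% rose), and 2 of the 4 falls, those of Atp6v0d1 and Atp6v0e, depend on single libraries. Their summed level was 61.8 RPKM in both 10–30 µm libraries and 51.7 and 47.4 at 60–65 µm. The accessory genes fell the most. Atp6ap2, for the prorenin receptor, an assembly partner of V0, was at 11.7 and 10.4 RPKM at 10–30 µm, 6.35 and 5.94 at 40–45 µm, 4.32 and 3.71 at 50–55 µm, 3.49 and 3.32 at 60–65 µm and 3.44 in GV. No 2 neighbouring classes overlapped, and the fall passed in the first step (-0.76 ± 0.12, adjusted p = 0.0047), in the second (-0.64 ± 0.12, adjusted p = 0.0218) and over growth (-1.66 ± 0.12, adjusted p = 1.73e-05), leaving 0.317 of the starting level. Atp6ap1, for the other accessory protein, Ac45, was at 11.3 and 11.4 RPKM at 10–30 µm, 8.17 and 10.2 at 40–45 µm, 7.01 and 7.22 at 50–55 µm, 6.21 and 6.33 at 60–65 µm and 4.83 in GV, and fell to 0.558 of its level (-0.84 ± 0.11, adjusted p = 0.000231). The related Atp6ap1l stayed below the filter, at 0.492 and 0.394 RPKM at 10–30 µm and 0.114 to 0.299 in all later columns.

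The a subunit, which forms the proton path and directs the pump to its membrane, was the exception. Atp6v0a2, the form known from Golgi and endosomes, had 5.44 and 6.55 RPKM at 10–30 µm, 6.72 and 7.93 at 40–45 µm, 9.81 and 9.74 at 50–55 µm, 11.4 and 10.4 at 60–65 µm and 12 in GV. It rose 1.81-fold over growth (log2 change 0.86 ± 0.11, adjusted p = 0.000215), with each class above the one before. Atp6v0a1, known as the neuronal form, gave 0.674 and 1.04 RPKM at 10–30 µm, 0.583 and 0.906 at 40–45 µm, 0.642 and 0.803 at 50–55 µm, 0.731 and 0.699 at 60–65 µm and 0.753 in GV, overlapping in all classes (-0.20 ± 0.21, adjusted p = 0.444). Of the RPKM of the a genes, the share of Atp6v0a2 was 87.8 and 85.5% at 10–30 µm and 92.7 and 92.9% at 60–65 µm. Atp6v0a4, the kidney form, lay between 0.0684 and 0.168 RPKM in growing oocytes and at 0.321 in GV.

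Atp6v0d1, for the subunit that couples the rotor to the V0 ring, gave 10.9 and 11.6 RPKM at 10–30 µm, 8.71 and 11.2 at 40–45 µm, 9.00 and 8.76 at 50–55 µm, 9.41 and 8.43 at 60–65 µm and 9.07 in GV. Atp6v0e, for a small membrane subunit, gave 4.72 and 3.80, 3.63 and 3.54, 3.48 and 3.16, and 3.26 and 3.27 RPKM in the same 4 classes and 3.22 in GV. Both fell by a small margin (-0.33 ± 0.12, adjusted p = 0.0358, and -0.36 ± 0.13, adjusted p = 0.044), and neither call was stable. That of Atp6v0d1 was lost when either library of the 10–30, 50–55 or 60–65 µm class was left out (adjusted p of up to 0.187), and that of Atp6v0e when any library other than 10–30 µm replicate B was left out (up to 0.249) and without the filter. The paralogue of Atp6v0e, Atp6v0e2, gave 2.61 and 3.25, 2.28 and 3.10, 2.14 and 2.88, and 2.68 and 2.88 RPKM, with 2.25 in GV, and was 35.7 to 47.7% of the RPKM of the e genes. The osteoclast and kidney gene Atp6v0d2 lay between 0.00463 and 0.0525 RPKM. The ring genes Atp6v0b (4.89 to 7.5 RPKM) and Atp6v0c (5.98 to 8.12) did not pass, although Atp6v0b did without 10–30 µm replicate B and with a replicate block.

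Proteins that assemble the pump were followed as a list of 10 further genes, of which 4 fell, 1 rose and 5 did not pass over growth (of all genes, 31.5% fell and 31.9% rose), with a median log2 change of -0.071. Vma21, for the assembly chaperone of V0, decreased from 1.47 and 1.66 to 0.840 and 0.859 RPKM (-0.80, adjusted p = 0.00022), and Wdr7, for a partner of the RAVE-like rabconnectin complex, from 1.99 and 2.45 to 1.21 and 1.18 (-0.83, adjusted p = 0.000713). Dmxl1, for another protein of that complex, increased from 3.59 and 3.43 to 4.08 and 4.57 RPKM (0.30, adjusted p = 0.0472).

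Lamp1, a heavily glycosylated protein of the lysosome membrane, was the most abundant gene of the 63. Its level was 88.8 and 97.2 RPKM at 10–30 µm, 72.5 and 89.7 at 40–45 µm, 67.7 and 68.9 at 50–55 µm, 63.1 and 63.5 at 60–65 µm and 57.2 in GV. The 60–65 µm libraries lay below every library of the earlier classes, and the fall passed over growth (-0.54 ± 0.11, adjusted p = 0.00246) but in none of the single steps. Lamp2, which also takes part in chaperone-mediated autophagy, was far lower, at 1.54 and 1.47 RPKM at 10–30 µm, 0.900 and 0.985 at 40–45 µm, 0.742 and 0.788 at 50–55 µm, 0.593 and 0.653 at 60–65 µm and 0.549 in GV. No classes overlapped, and Lamp2 fell to 0.452 of its level as fitted with 0.1 RPKM added (-1.14 ± 0.11, adjusted p = 6.1e-05). Lamp1 made up 98.3 to 99.1% of the RPKM of the LAMP genes, and Lamp3, known from mature dendritic cells, lay at 0 to 0.0119 RPKM.

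Among the cathepsins, 6 of 18 genes were tested. Of these, Ctsf, Ctsa, Ctsl and Ctsd fell, Ctsh rose and Ctsb did not pass, where 31.5% of all genes fell and 31.9% rose. Ctsh, for an aminopeptidase of the cysteine cathepsins, measured 2.17 and 2.52 RPKM at 10–30 µm, 7.88 and 6.36 at 40–45 µm, 12.6 and 11.3 at 50–55 µm, 15.1 and 15.7 at 60–65 µm and 16.2 in GV. Every class lay above the one before without overlap, and the rise was 6.38-fold over growth. It passed in the first step (1.63 ± 0.13, adjusted p = 0.000632) and in the second (0.71 ± 0.13, adjusted p = 0.0204), and not in the last (0.34 ± 0.13, adjusted p = 0.318).

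Ctsf, for another cysteine cathepsin, followed the opposite course, from 2.29 and 1.78 RPKM at 10–30 µm to 0.526 and 0.702 at 40–45 µm, 0.250 and 0.262 at 50–55 µm, 0.178 and 0.235 at 60–65 µm and 0.115 in GV. It kept 0.145 of its level as fitted with 0.1 RPKM added, which understates the fall between class means of 2.03 and 0.207 RPKM. In the first step lay 54.4% of the log2 change. Ctsa, a serine carboxypeptidase that also protects β-galactosidase and neuraminidase in the lysosome, was at 3.20 and 3.26 RPKM at 10–30 µm, 1.39 and 2.02 at 40–45 µm, 0.893 and 1.04 at 50–55 µm, 0.518 and 0.661 at 60–65 µm and 0.308 in GV (-2.27 ± 0.17, adjusted p = 1.94e-05). Ctsl, for an endopeptidase of broad specificity, was at 4.41 and 3.53 RPKM at 10–30 µm, 1.51 and 1.74 at 40–45 µm, 1.11 and 1.16 at 50–55 µm, 0.888 and 0.850 at 60–65 µm and 0.719 in GV (-2.05 ± 0.14, adjusted p = 1.2e-05). In these 3 genes no classes of growing oocytes overlapped, and the GV value was below both 60–65 µm libraries. Ctsf reached 0.5 RPKM in the 10–30 and 40–45 µm classes alone, so that it passed the filter through the classes in which it was high.

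Ctsd, the aspartic protease, was the most abundant cathepsin, at 40.5 and 39.5 RPKM at 10–30 µm, 29.1 and 34.2 at 40–45 µm, 22.2 and 24.3 at 50–55 µm, 17.7 and 21.0 at 60–65 µm and 13.4 in GV. It fell to 0.485 of its level (-1.04 ± 0.12, adjusted p = 0.000151). Ctsb, for an endopeptidase and dipeptidase, kept to a narrow range, at 6.31 and 6.41 RPKM at 10–30 µm, 6.01 and 6.33 at 40–45 µm, 6.52 and 6.26 at 50–55 µm, 6.91 and 6.79 at 60–65 µm and 6.18 in GV (0.11 ± 0.09, adjusted p = 0.279). Ctsb lies opposite Fdft1 over 767 bp, a gene at 40.8 to 56.1 RPKM. The order of the tested cathepsins by level thus changed from Ctsd, Ctsb, Ctsl, Ctsa, Ctsh and Ctsf at 10–30 µm to Ctsd, Ctsh, Ctsb, Ctsl, Ctsa and Ctsf at 60–65 µm, and the libraries of neighbours in this order overlapped only for Ctsh and Ctsf at 10–30 µm.

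**Figure D4:**
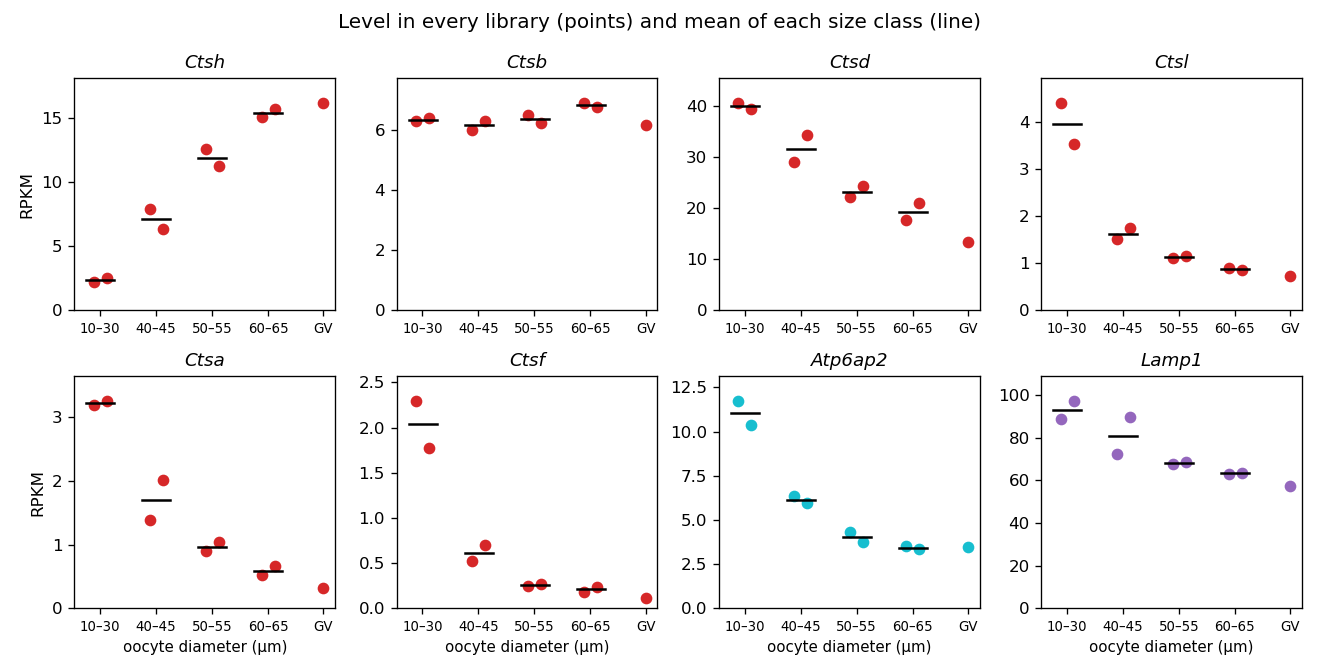
RPKM of 6 cathepsins, Atp6ap2 and Lamp1 in every library. Points are libraries, A left and B right, lines are the means of the 2 libraries of a size class, and the GV column has 1 point; every axis starts at 0. Ctsh climbs from 2.17 and 2.52 to 15.1 and 15.7 RPKM, Ctsb stays between 6.01 and 6.91, and the other genes decline.

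The remaining 12 cathepsins did not reach the filter. Ctsz was the highest of them, at 0.168 and 0.170 RPKM at 10–30 µm and 0.0528 to 0.0693 in the later growing classes. The bone and leukocyte genes Ctsc, Ctse, Ctsg, Ctsk, Ctss and Ctsw and the widely expressed Ctso lay between 0 and 0.0244 RPKM, and Ctsg was listed at 0 in all columns. The placental genes Ctsj, Ctsm, Ctsq and Ctsr lay between 0 and 0.0796, with Ctsq and Ctsr at 0 throughout, and of the placental cathepsins named with a digit (Cts3, Cts6, Cts7 and Cts8) 0 of 4 reached the filter. The macrophage and leukocyte list, which holds other genes of cathepsin-rich cells, summed to 1.35 to 1.56 RPKM at 10–30 µm and 2.56 to 2.81 at 60–65 µm, most of it from C1qb, whereas the stroma and theca list summed to 2.83 to 4.0 and then 0.995 to 1.10, in the direction of the falling cathepsins. In the direction of the rising Ctsh, the granulosa list summed to 12.7 to 14.4 RPKM at 10–30 µm and 19.7 to 21.7 at 60–65 µm, and the endothelial list to 1.06 to 1.17 and then 5.34 to 5.93. The part of these cells in the changes was not tested.

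Both inhibitors of cysteine cathepsins that were tested, of 7 in the table, also fell, where 31.5% of all genes fell and 31.9% rose. Cstb, for the cytosolic inhibitor cystatin B, went from 5.86 and 4.53 RPKM at 10–30 µm to 0.746 and 0.997 at 60–65 µm (-2.44, adjusted p = 1.58e-05), and Cst3, for the secreted cystatin C, from 13.7 and 12.6 to 10.7 and 10.8 (-0.28, adjusted p = 0.0454). Of 6 genes that tag and sort lysosomal enzymes by mannose phosphate, 3 fell and 0 rose (median log2 change -0.27), where 31.5% of all genes fell and 31.9% rose. Among these, Nagpa, which uncovers the tag, decreased from 1.30 and 1.59 to 0.767 and 0.893 RPKM (-0.72, adjusted p = 0.00126), and M6pr, a receptor for it, from 7.57 and 6.26 to 4.34 and 4.56 (-0.61, adjusted p = 0.00278).

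The wider lysosome gave a mixed picture of the same kind. Of 19 tested lysosomal hydrolases outside the cathepsins, 10 fell, 4 rose and 5 did not pass (median log2 change -0.52), where 31.5% of all genes fell and 31.9% rose. Hexa, for the hexosaminidase subunit that is deficient in Tay-Sachs disease, decreased from 0.971 and 0.978 to 0.158 and 0.166 RPKM (-2.02, adjusted p = 8.06e-06). Pla2g15, for the lysosomal phospholipase, increased from 4.19 and 4.89 to 10.9 and 10.7 RPKM (1.24, adjusted p = 2.02e-05), and Smpd1, for acid sphingomyelinase, from 6.72 and 7.62 to 13.3 and 12.6 (0.86, adjusted p = 8.91e-05). Hexa passed the filter through its values at 10–30 µm alone. Of 11 tested genes of the lysosome membrane, 7 fell and 2 rose (median -0.41, with the same shares of all genes), the sialic acid carrier gene Slc17a5 from 2.67 and 2.70 to 0.663 and 0.786 RPKM (-1.75, adjusted p = 1.21e-05) and Scarb2 from 1.09 and 1.1 to 0.482 and 0.548 (-0.97), against rises of the cholesterol exporter gene Npc1 from 5.56 and 7.59 to 11.7 and 10.9 (0.79) and of Laptm4b from 56.3 and 67.8 to 96.5 and 98.9 (0.67).

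Of the ATG genes, 14 of 17 were tested, 4 fell (28.6%, against 31.5% of all genes), 2 rose (14.3%, against 31.9%) and 8 did not pass, and their median log2 change was -0.026. Their summed level was 99.8 and 102 RPKM at 10–30 µm and 114 and 111 at 60–65 µm. Much of this sum came from Atg5, whose product is joined to ATG12, at 45.5 and 42.0 RPKM at 10–30 µm, 52 and 44.2 at 40–45 µm, 53.2 and 46.3 at 50–55 µm, 47.3 and 49.1 at 60–65 µm and 48.0 in GV. Both 60–65 µm libraries lay above both 10–30 µm libraries, but the difference did not pass (0.15 ± 0.13, adjusted p = 0.346). Atg12 was the second, at 19.2 and 19.3 RPKM at 10–30 µm, 17.2 and 16.7 at 40–45 µm, 18.6 and 17.4 at 50–55 µm, 18.6 and 18.5 at 60–65 µm and 21.9 in GV (-0.049 ± 0.091, adjusted p = 0.654).

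Atg16l1, whose product binds the ATG12–ATG5 conjugate and places it on the growing membrane, rose 2.15-fold. It measured 5.10 and 5.07 RPKM at 10–30 µm, 7.52 and 6.88 at 40–45 µm, 9.57 and 8.95 at 50–55 µm, 11.4 and 10.7 at 60–65 µm and 10.9 in GV, each growing class above the one before (1.11 ± 0.10, adjusted p = 4.25e-05). Its paralogue Atg16l2, below the filter, was at 0.537 and 0.480 RPKM at 10–30 µm, 0.413 and 0.382 at 40–45 µm, 0.379 and 0.302 at 50–55 µm, 0.338 and 0.343 at 60–65 µm and 0.225 in GV. As a share of the RPKM of both genes, Atg16l1 was 90.5 and 91.4% at 10–30 µm and 97.1 and 96.9% at 60–65 µm.

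The enzymes that load these conjugates gave lower values in part. Atg10, for the enzyme that transfers ATG12 to ATG5, was at 0.763 and 0.602 RPKM at 10–30 µm, 0.525 and 0.439 at 40–45 µm, 0.444 and 0.414 at 50–55 µm, 0.313 and 0.323 at 60–65 µm and 0.429 in GV, and fell (-0.89 ± 0.16, adjusted p = 0.00142), having passed the filter through the 10–30 and 40–45 µm classes. Atg3, the corresponding enzyme for the ATG8 proteins, ranged from 1.43 to 2.20 RPKM and fell (-0.49 ± 0.12, adjusted p = 0.00708), whereas Atg7, the activating enzyme of both conjugations, ranged from 2.21 to 2.88 and did not pass.

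The ATG4 proteases, which trim ATG8 proteins before use and free them from membranes, differed among themselves. Atg4b, the main form, was at 6.62 and 6.45 RPKM at 10–30 µm, 5.70 and 6.01 at 40–45 µm, 6.00 and 5.81 at 50–55 µm, 6.62 and 6.23 at 60–65 µm and 6.96 in GV (-0.017 ± 0.091, adjusted p = 0.881). Atg4a was at 1.38 in both 10–30 µm libraries, 1.22 and 1.05 at 40–45 µm, 0.981 and 0.853 at 50–55 µm, 0.901 and 0.945 at 60–65 µm and 1.02 in GV, and fell (-0.53 ± 0.13, adjusted p = 0.00631). Atg4d was at 0.531 and 0.505 RPKM at 10–30 µm, 0.191 and 0.190 at 40–45 µm, 0.0937 and 0.0917 at 50–55 µm, 0.0561 and 0.0805 at 60–65 µm and 0.0198 in GV, with no overlap between the 10–30 µm class and the others. The log2 change of Atg4d was -1.86 ± 0.14 (adjusted p = 1.96e-05), but it passed the filter through the 10–30 µm libraries alone and so had to differ, and it lies opposite Kri1 (0.715 to 0.997 RPKM) over 911 bp. Atg4c, below the filter, lay between 0.390 and 0.321 RPKM at 10–30 µm and 0.338 and 0.274 at 60–65 µm, with 0.328 and 0.230 at 40–45 µm, 0.292 and 0.266 at 50–55 µm and 0.232 in GV. Of the RPKM of the ATG4 genes, Atg4b was 74.2 and 74.6% at 10–30 µm and 83.6 and 82.7% at 60–65 µm.

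Among the genes that start and feed the membrane, Atg2b, for a lipid transfer protein, rose (0.43 ± 0.15, adjusted p = 0.0317) over a range of 2.05 to 3.48 RPKM, a call lost without 10–30 µm replicate A, 50–55 µm replicate B or either 60–65 µm library and without scaling or filter, with an adjusted p of up to 0.181. Its paralogue Atg2a ranged from 2.46 to 5.21 RPKM, the membrane protein gene Atg9a from 3.07 to 4.7, Atg13, for a partner of the starting kinase ULK1, from 0.738 to 1.33, and Atg14, for a subunit of the lipid kinase complex, from 6.62 to 9.31, and none of these 4 passed. Without 10–30 µm replicate B, Atg2a and Atg9a passed as well, and Atg2a also did with a replicate block. Atg9b stayed between 0.0701 and 0.210 RPKM.

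Of 25 tested autophagy genes without the ATG name, 11 fell and 7 rose, where 31.5% and 31.9% of all genes did, with a median log2 change of -0.008. The largest falls were in genes of the ATG8 family, the proteins that the enzymes above attach to membranes. Gabarapl1, which passed the filter through the 10–30 µm libraries alone and so had to differ, decreased from 1.03 and 0.987 to 0.0970 and 0.0783 RPKM (-2.55, adjusted p = 6.97e-06) and Gabarap from 5.92 and 4.99 to 1.33 and 1.21 (-2.01, adjusted p = 1.23e-05). Vamp8, for a fusion protein of autophagosome and lysosome, increased from 3.36 and 2.79 to 7.0 and 6.67 RPKM (1.14, adjusted p = 0.000171), and Ambra1, for a regulator of the starting complex, from 3.04 and 4.21 to 8.50 and 7.05 (1.10, adjusted p = 0.000353). Of the 4 genes of the TFEB family, which bind the CLEAR element, 2 were tested. Tfe3 rose from 1.33 and 2.34 RPKM at 10–30 µm to 4.05 and 3.95 at 60–65 µm (1.14, adjusted p = 0.00436), Mitf lay between 0.984 and 1.18 in all 9 columns (0.07, adjusted p = 0.598), and Tfeb was at 0.112 and 0.181 at 10–30 µm and 0.0352 and 0.0449 at 60–65 µm, below the filter. Tfec, also below it, was at 0.345 and 0.152 RPKM at 10–30 µm and 0.0588 and 0.0746 at 60–65 µm.

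In GV oocytes the group stood close to the 60–65 µm class, as did the genes of the whole table. This comparison has no replicate on the GV side and no test. Of 36 members at 0.5 RPKM or more in 1 of the 3 columns, 0 were at least 2-fold above and 0 at least 2-fold below both 60–65 µm libraries, against 0.98% and 0.272% of all genes. The ratio of GV to the mean of the 60–65 µm libraries ran from 0.522 for Ctsa to 1.22 for Atp6v1b2, with a median of 0.989 over the 36 members and 0.985 over all genes. The GV value lay above both libraries for 11 members, below both for 17 and between them for 8. The same split was not counted over all genes, so that it is not a result about the group. Of the 36, Ctsa (0.522), Ctsd (0.692) and Atp6ap1 (0.770) were lowest, all genes that had fallen during growth. Atg4d, Ctsf and Atg10 had also fallen, but were below 0.5 RPKM in these columns and were not counted. Atg4d gave 0.0198 RPKM in GV against 0.0561 and 0.0805 at 60–65 µm. Ctsf gave 0.115 against 0.178 and 0.235, and Atg10 gave 0.429 against 0.313 and 0.323.

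Methylation was measured around the start of each gene (500 bp to either side, at least 5 CpG cytosines with 5 or more reads) and along its body (from 1 kb after the start, for genes of at least 4 kb). Starts of the members had little methylation, as did those of all genes. In PBAT at 60–65 µm, 49 starts were measured with a median of 3.01% (3.46% over all genes), and 2 of them, Ctsw at 37.5% (15 positions) and Atg4b at 33.7% (7 positions), reached 25%, against 4.96% of all genes. The Atg4b start given in the expression table lies inside Thap4, a gene of the opposite strand at 8.62 RPKM, and at the RefSeq start of Atg4b, 3405 bp away, the level was 2.43% over 219 positions. Neither start was counted at 25% when 10 reads a position were required or when the window was narrowed to 250 bp. Ctsw had 98 calls over its 15 positions and Atg4b 58 over its 7, too few for 5 positions at 10 reads. Both thus went unmeasured at 10 reads. A narrower window may also leave fewer than 5 positions, so that neither setting speaks to the level of these starts. In RRBS at 60–65 µm, 0 of the members measured in both libraries reached 25%, against 1.03% of all genes. No member with at least 5 positions was above 3.06% in A or 4.19% in B. Neither Ctsw nor Atg4b was measured there. Ctsw had 3 positions in A (11 of 37 calls methylated) and 2 in B (1 of 18), and Atg4b had 0.

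The 35 starts measured in all 6 RRBS libraries had medians of 0.455 and 0.561% at 40–45 µm, 0.501 and 0.215% at 50–55 µm and 0.468 and 0.721% at 60–65 µm, with no order by size. All genes measured in these libraries had medians of 0.602 and 0.349%, 0.608 and 0.310%, and 0.572 and 0.490%. For Ctsf, RRBS gave 1.27 and 0.412% at 40–45 µm, 0.504 and 0.241% at 50–55 µm and 0.237 and 1.11% at 60–65 µm. In the same order Ctsa had 0 and 1.51%, 0 and 0.0714%, and 0.804 and 0%, and Ctsl had 1.36 and 0.0436%, 0.182 and 0%, and 0.162 and 1.75%. The start of the rising Ctsh was at 0.455 and 0%, 1.08 and 0.215%, and 0.333 and 2.42%. The highest RRBS value of any member start with at least 5 positions, 11.1% for Atp6ap2 in 40–45 µm replicate B, came with 0% in replicate A. With 2 libraries a class the smallest p of a permutation test is 0.333, and no test was made.

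Bodies of 52 members had a median methylation of 42.2% in PBAT at 60–65 µm, against 27.6% over 17457 genes. With the region near the start included, the median was 26.5% over the members and 18.7% over all genes. The members were also more often expressed, and within ranges of RPKM the gap was smaller. Members below 0.5 RPKM at 60–65 µm had a median of 12.4% (n = 20) and all such genes 9.49%, members from 0.5 to 5 RPKM 57.9% (n = 13) and all 49.7%, and members at 5 RPKM or more 51.9% (n = 19) and all 47.7%. Spearman's rho between body methylation and RPKM was 0.555 across the 52 members and 0.638 across all genes, across genes of 1 library, which are not independent replicates. The library had no duplicate, so that these values have no replicate error.

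Some members departed from this pattern. The body of Lamp2 had the highest level of the 52, 73.5%, at an RPKM of 0.593 and 0.653. Atg4d and Atg4c, at 62.1% and 65.0%, were highly methylated although both were below 0.5 RPKM at 60–65 µm, and Atg4d had been higher at 10–30 µm. Conversely, Atp6v0c had 18.3% (22 positions) at more than 6 RPKM, and Ctsa had 8.28% and Ctsl 21.2% at between 0.5 and 1 RPKM. Atg4b, at 12.5% (349 positions), is not comparable, since its body as counted from the table start contains the 219 positions around its RefSeq start. These genes were picked out after their values were seen.

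**Figure D5:**
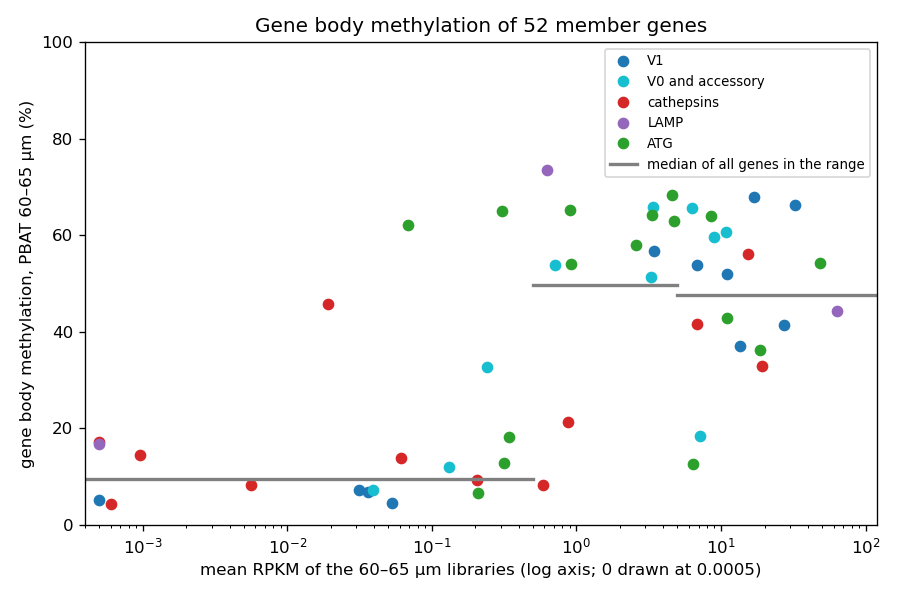
Gene body methylation in the PBAT library against mean RPKM of the 60–65 µm libraries for 52 members, coloured by group. Grey lines are the medians of all genes below 0.5, from 0.5 to 5 and from 5 RPKM, at 9.49, 49.7 and 47.7%. Most members below 0.1 RPKM lie under 20% and most above 0.5 RPKM over 40%.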

How the data were processed

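Oocytes of wild-type C57BL/6 mice (C57BL/6Babr in the methods), sorted by diameter, were profiled by RNA-seq (9 samples), RRBS (6) and PBAT (1). The authors trimmed the RNA reads with Trim Galore 0.2.8 and aligned them to GRCm38 with TopHat2 2.0.9, and deposited RPKM per gene. The methods name Cufflinks and SeqMonk for RNA-seq and describe strand-specific libraries, but not which program made this table or whether it counted by strand. For RRBS and PBAT (Trim Galore 0.3.5, Bismark 0.14.0 and 0.10.0) the deposited files give the percent methylated and the counts of methylated and unmethylated calls per CpG cytosine, and the authors removed duplicates from PBAT.

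From these, log2(RPKM + 0.1) was fitted with limma 3.58.1 (variance trend) in R 4.3.3 over the 8 libraries of growing oocytes, with 4 class means and 4 residual degrees of freedom, after trimmed-mean scaling (30% by ratio, 5% by level, factors from 0.951 to 1.05). Genes of at least 0.5 RPKM in 2 libraries (10518) were tested, with two-sided p-values and Benjamini-Hochberg adjustment over all of them (threshold 0.05). Fold changes are on the log2(RPKM + 0.1) scale and understate the change of low genes. On simulated data for the comparison of 10–30 with 60–65 µm (10518 genes), 162 of 200 genes changed by 1 on the log2 scale were called together with 5 unchanged genes, 0 of 200 changed by 0.5, and 0 genes in a comparison without a change. In the data, 3358 genes rose and 3315 fell in this comparison, far more than the 200 changed in the simulation. The simulated noise was also independent between libraries, so that these rates do not carry over to the data. Percent methylated was recomputed from the counts with Python 3.11.15, numpy 2.4.6, scipy 1.17.1 and pandas 2.3.3, and matplotlib 3.10.9 drew the figures.

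Members and lists were chosen with earlier results of these data known. Values in every library are given for the 15 called members with the largest change over growth, the 3 largest changes of each step, the 3 highest members of each group and the paralogues of the V-ATPase, LAMP, ATG4 and ATG16L genes, except that Lamp3 and most paralogues below the filter are given by their range. Of each other list, up to 2 genes in each direction are given at 10–30 and 60–65 µm. 1 gene that this rule names is not reported here. The alternatives were other pseudocounts, filters, scalings and variance priors, a replicate block, the GV column in the fit, each library left out, and other thresholds and windows for methylation.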

Additional observations from a re-analysis of the deposited data

How the results depend on the processing

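Of the changes of the 39 tested members over growth (36 at a filter of 1 RPKM), all kept their direction under the other pseudocounts, filters, scalings and variance priors and with the GV column in the fit, with the exceptions in calls already named beside each gene. Leaving out single libraries turned the sign of 5 genes that had not passed. Their log2 changes over growth ranged from -0.076 to 0.043 for Atg4b (above 0 without 10–30 µm replicate A, and at 0.017 without 60–65 µm replicate B), from -0.17 to 0.051 for Atp6v0e2, from -0.099 to 0.027 for Atg7 and from -0.43 to 0.044 for Atp6v0a1 (all 3 above 0 without 10–30 µm replicate B), and from -0.073 without 60–65 µm replicate A to 0.32 for Atp6v0c. Over the libraries left out, members higher ranged from 1 to 4 and lower from 3 to 10 in the first step, from 0 to 2 and from 0 to 7 in the second, 0 and 0 in the third, and from 3 to 7 and from 16 to 20 over growth.

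In the second step, 2 members were higher without the filter and 2 without scaling, and 2 were lower without the filter and 3 at a filter of 1 RPKM. Without the filter, 388 of all genes rose and 142 fell in that step, in place of 578 and 370, with 20052 genes tested; the cause was not tested.

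The letters A and B recur in the classes. Their deviations correlated between the 3 smaller classes (0.596, 0.589 and 0.669), but with the 60–65 µm class at -0.227, -0.0257 and 0.113, and the labels do not say what a letter stands for, so that no pairing was assumed. With a replicate block, members higher in the second step were 3 and lower 7, and 1 member was lower in the third, where 154 of all genes rose and 79 fell, and in the second step 1015 rose and 861 fell. The block also added calls for Atg2a, Atp6v0b, Atp6v1a and Atp6v1b2 over growth.

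Toward GV, 1 member was lower at a 1.5-fold limit, and 0 to 1 when a 60–65 µm library was left out. Starts at 25% in PBAT were 0 at 10 reads a position, 0 within 250 bp, 0 at a threshold of 50%, and 1 (Ctsw, at its start in the expression table) when starts over 500 bp away were replaced by those of RefSeq, an alternative chosen after seeing the data, and in RRBS 0 to 0 without either library. At 10 reads a position, Ctsw and Atg4b went unmeasured for want of reads, so that their loss there is not a lower level. The median body methylation was 38.4% at 1 read, 46.5% at 10 reads and 26.5% over whole genes.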
